A study of Rattus norvegicus with 9 samples.

Results

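De novo fatty acid synthesis was followed through 10 genes of rat bone, taken from the expression tables by their symbols: Srebf1, Thrsp, Acly, Me1, Acaca, Fasn, Elovl6, Scd, Gpam and Dgat2. All 10 were found among the 23026 genes of the tables, and all 10 passed the filter on low counts that left 16874 genes for testing. The samples were bone from female Sprague-Dawley rats, which were 8 weeks old when bought, in 3 groups of 3 libraries. Sham rats kept their ovaries, lost a matching piece of nearby fat and received sodium carboxymethyl cellulose (CMC-Na), the vehicle. OVX rats had both ovaries removed and received the same vehicle. OVX-AS-IV-High rats had both ovaries removed and received Astragaloside IV (AS-IV), a saponin of Astragalus root, at 80 mg/kg. Gavage began 6 weeks after surgery and went on daily for 8 weeks. The sample labels give the vehicle of Sham replicates 1, 2 and 3 as 1%, 2% and 3% CMC-Na, while all OVX libraries carry 1%. The study's methods describe a single strength for Sham and OVX animals, so the labels of Sham replicates 2 and 3 may be in error, and whether the vehicle differed within Sham is not known. Total counts ran from 34874880 to 37298250 per library, and no member had fewer than 167 counts in any library.

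Cells make fatty acids from citrate. ATP-citrate lyase (Acly) splits it into acetyl-CoA, acetyl-CoA carboxylase (Acaca) turns acetyl-CoA into malonyl-CoA, and fatty acid synthase (Fasn) builds palmitate from malonyl-CoA with NADPH that malic enzyme (Me1) helps to supply. Elovl6 lengthens palmitate, stearoyl-CoA desaturase (Scd) adds the first double bond, and Gpam and Dgat2 catalyse the first and the last step of triglyceride assembly. SREBP-1, the product of Srebf1, drives transcription of most of these genes, and Thrsp (Spot 14) is a small protein that promotes lipogenesis. In bone the pathway is best known from the fat cells of the marrow.

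The tissue label was checked first. Col1a1, the main collagen of bone matrix, lay between 368 and 1596 FPKM, and Sost, an osteocyte gene, between 18.2 and 43.3 FPKM. Every library also carried marrow and muscle RNA. The summed level of 15 skeletal muscle markers was 12553, 8837 and 2213 CPM (counts scaled to the TMM-adjusted library size) in Sham replicates 1, 2 and 3, 4687, 2666 and 2235 CPM in OVX, and 6526, 2952 and 787 CPM in OVX-AS-IV-High, with no marker at 0 in any library. Sham replicates 1 and 2 had the highest sums, and OVX-AS-IV-High replicate 1 came next. The summed level of 19 adipocyte markers was 945 to 1079 CPM in Sham, 1216 to 1553 CPM in OVX and 1183 to 1536 CPM in OVX-AS-IV-High, also with no marker at 0. In bulk tissue, more cells of a type and more RNA per cell cannot be told apart.

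OVX vs. Sham asked what loss of the ovaries changed. Scd and Thrsp were higher in OVX, by 4.09-fold and 2.48-fold, and Fasn by 1.60-fold, with every OVX library above every Sham library for all 3 genes. Acaca rose by 1.37-fold and Gpam by 1.20-fold. Acly, Srebf1, Dgat2, Elovl6 and Me1 did not pass the test. With edgeR's quasi-likelihood test, 5 of the 10 genes were higher at an unadjusted p under 0.05, where 8.16% of all tested genes were higher, and none was lower, as 8.28% of all genes were. The study's thresholds for a differentially expressed gene (DEG), an unadjusted p under 0.05 with an absolute log2FC above 1, were passed by 2 members, Scd and Thrsp, against 1.08% of all tested genes that passed as higher. At the lower bound of 0.58 on the absolute log2FC, which also appears in the methods, Fasn passed as well, making 3 members against 2.86% of all tested genes. In 5 members (Fasn, Gpam, Scd, Srebf1 and Thrsp) the lowest OVX library lay above the highest Sham library, against 12.7% of all tested genes. The median log2FC was 0.28 over the members and -0.01 over all tested genes. The members were chosen with earlier results of these data known, so their shares are descriptive. No member passed a Benjamini-Hochberg adjusted p of 0.05 in edgeR, nor did any other gene (0.0%), whereas DESeq2 called Fasn and Thrsp, with 4.85% of the genes it tested called.

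These calls moved with Sham replicates 1 and 2, which differed from Sham replicate 3 in more than muscle RNA. Their summed osteoblast and osteocyte markers were 5866 and 7621 CPM, against 15307.5 CPM in Sham replicate 3 and 11751 to 19046 CPM in OVX. Their osteoclast marker sums were 982 and 1433 CPM, against 2183 CPM in Sham replicate 3 and 1400 to 2655 CPM in OVX. Which of these differences moved the calls was not tested. Without Sham replicates 1 and 2, which left a single Sham library assumed to vary like the other groups, none of the 10 members passed an unadjusted p of 0.05. In a fit that carried the log2 of the summed muscle markers as a covariate, 3 members passed (Scd, Thrsp and Fasn), and 1 of them, Scd, passed the DEG thresholds. Both fits were added after the data had been seen.

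**Figure D1:**
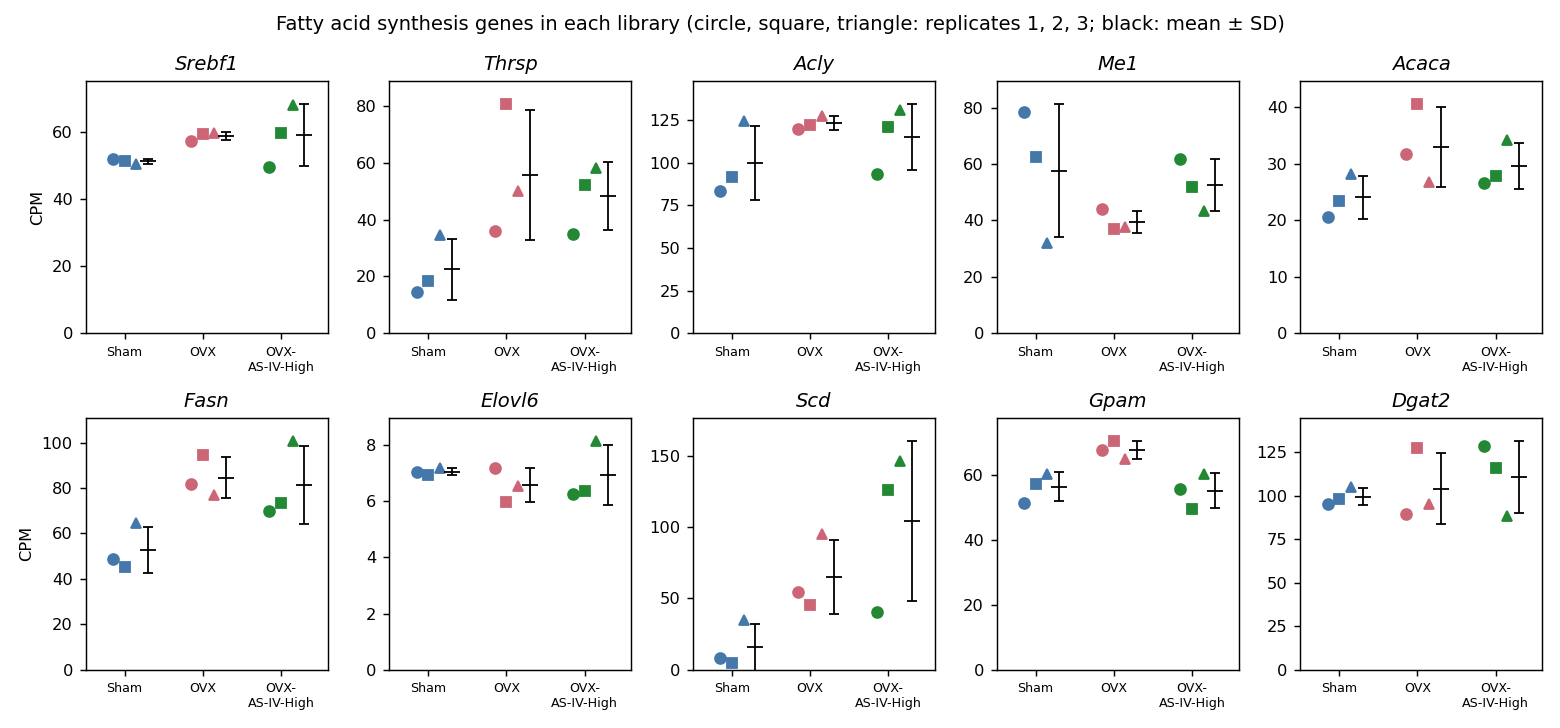
CPM of each member (vertical axis, linear, starting at 0) in each of the 9 libraries, by group; the circle, square and triangle are replicates 1, 2 and 3, and the black mark with its bar is the group mean ± SD (n = 3), which for Scd in Sham reaches below 0 and is drawn to 0. Scd, Thrsp and Fasn stand higher in all 3 OVX libraries than in all 3 Sham libraries, and Sham replicate 3 is the highest Sham library for each of them.

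Scd, the desaturase that makes oleate from stearate, showed the largest log2FC of the 10. Its level was 7.91, 4.90 and 34.9 CPM in Sham replicates 1, 2 and 3, 54.6, 45.5 and 94.8 CPM in OVX, and 40.3, 126 and 146 CPM in OVX-AS-IV-High. Sham replicate 3, the Sham library with the least muscle RNA, was far above the other Sham libraries, and all 6 libraries of ovariectomized rats were above it. The log2FC of OVX over Sham was 2.03 ± 0.726 (SE), with a 95% interval of 1.32-fold to 12.7-fold (adjusted p = 0.223 in edgeR). With the muscle covariate it was 1.64 and still passed the DEG thresholds, and without Sham replicates 1 and 2 it was 0.91 and did not pass. When single libraries were left out, the call was lost without Sham replicate 1, without Sham replicate 2 and without OVX replicate 3, and the log2FC reached 3.34 without Sham replicate 3.

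Rats carry further desaturase genes. Scd2, the form best known from brain and lung, lay at 86.3, 84.7 and 85.9 CPM in Sham, 139, 140 and 125 CPM in OVX, and 87.5, 132 and 148 CPM in OVX-AS-IV-High. Its 3 Sham libraries were nearly level, unlike those of Scd, and all OVX libraries were above them (log2FC 0.65 ± 0.168, adjusted p = 0.153 in edgeR). This difference kept an unadjusted p under 0.05 in all 20 alternative fits, the one without Sham replicates 1 and 2 included. In FPKM, which compares genes per length, the share of Scd in the sum of Scd and Scd2 was 8.77%, 5.72% and 29.8% in the Sham libraries. It was 29.2%, 25.4% and 44.4% after ovariectomy and 32.6%, 50.0% and 50.8% with AS-IV. Sham replicate 3 had a share like that of the OVX libraries. The genes are close paralogs, and reads that match both may have been split between them by the authors' estimator, so these shares are uncertain. Scd4 had at most 3 counts in any library.

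The start regions of these paralogs are given to show how they differ, together with those of Thrsp and Gpam, the other members past the test in some comparison for which RefSeq start regions were at hand (GRCr8, 250 bases before to 50 after the annotated first base, each read on the strand of its gene). Capitals mark matches on either strand to CCAAT, the letters bound by NF-Y, and to CANNTG, the E-box letters. Positions count the annotated first base as 0. Scd lies at chr1:253231682-253231981 on the minus strand, Scd2 at chr1:253118127-253118426 on the plus strand, Thrsp at chr1:161138915-161139214 and Gpam at chr1:264175862-264176161, both on the minus strand.
Scd: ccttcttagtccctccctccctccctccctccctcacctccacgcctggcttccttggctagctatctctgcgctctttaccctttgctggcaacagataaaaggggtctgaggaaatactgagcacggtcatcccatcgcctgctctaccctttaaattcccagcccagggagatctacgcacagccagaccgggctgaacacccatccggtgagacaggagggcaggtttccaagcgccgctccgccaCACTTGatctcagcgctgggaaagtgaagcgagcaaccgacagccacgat
Scd2: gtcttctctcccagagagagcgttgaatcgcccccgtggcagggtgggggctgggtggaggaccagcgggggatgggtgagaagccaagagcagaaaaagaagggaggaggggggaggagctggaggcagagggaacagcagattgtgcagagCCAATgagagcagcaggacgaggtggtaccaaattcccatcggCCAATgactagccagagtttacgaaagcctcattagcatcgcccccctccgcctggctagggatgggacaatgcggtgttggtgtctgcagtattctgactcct
Thrsp: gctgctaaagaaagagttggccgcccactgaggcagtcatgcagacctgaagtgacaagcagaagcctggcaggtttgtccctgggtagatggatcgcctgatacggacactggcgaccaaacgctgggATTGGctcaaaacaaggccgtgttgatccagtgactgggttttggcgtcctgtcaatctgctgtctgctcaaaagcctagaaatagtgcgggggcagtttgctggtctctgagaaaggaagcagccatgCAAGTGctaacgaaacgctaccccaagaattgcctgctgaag
Gpam: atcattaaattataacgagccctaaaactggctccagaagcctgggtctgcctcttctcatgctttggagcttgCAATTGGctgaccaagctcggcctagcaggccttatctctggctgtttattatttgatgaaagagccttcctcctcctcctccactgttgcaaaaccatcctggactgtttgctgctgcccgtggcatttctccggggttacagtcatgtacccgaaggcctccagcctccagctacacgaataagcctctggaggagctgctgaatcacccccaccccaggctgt

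The Scd window held 1 E-box match, at 0, and no CCAAT match, whereas the Scd2 window held CCAAT at -97 and -54 and no E-box match. In Thrsp a CCAAT match on the reverse strand began at -121 and an E-box match at 8. In Gpam a reverse CCAAT match at -174 overlapped an E-box match at -176. RefSeq start regions were at hand for 6 members (these 3 with Acly, Me1 and Srebf1, the last with 2 start sites). CCAAT letters occurred in 4 of the 6, E-box letters in 5 and GC box letters (GGGCGG) in 4, and among all 33469 start regions of the table these were found in 37.5%, 72.1% and 33.1%. The palindromic E-box CACGTG (6.42% of all windows), the sterol regulatory element letters TCACNCCAC (1.12%) and TATAAA (14.2%) had no match in the members' windows. Both strands were searched, and every palindromic E-box also counts as an E-box.

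Thrsp, the lipogenic Spot 14 protein, followed Scd in size. It lay at 14.3, 18.4 and 34.7 CPM in Sham, 36.2, 80.9 and 50.2 CPM in OVX, and 35.0, 52.1 and 58.3 CPM in OVX-AS-IV-High. The gap between the highest Sham library and the lowest OVX library was small, and OVX replicate 2 was far above its group. In edgeR the log2FC of OVX over Sham was 1.31 ± 0.378 (adjusted p = 0.169), which is 2.48-fold with an interval of 1.38 to 4.47. It passed an unadjusted p of 0.05 in all 9 fits that left out 1 library, with a log2FC of 0.94 without OVX replicate 2, and with the muscle covariate, at 1.00. Without Sham replicates 1 and 2 it was 0.70 and did not pass.

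Mid1ip1, a paralog of Thrsp that binds acetyl-CoA carboxylase, did not show this. Its log2FC of OVX over Sham was -0.17 ± 0.0948, which did not pass, and its levels lay between 89.5 and 115 CPM in all 9 libraries.

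Srebf1 encodes the transcription factor of the pathway, and the tables join its transcripts in a single row. Its level was 51.9, 51.1 and 50.5 CPM in Sham, 57.2, 59.1 and 59.5 CPM in OVX, and 49.4, 59.5 and 67.9 CPM in OVX-AS-IV-High. Sham and OVX each spanned a narrow range and did not overlap, but the log2FC was 0.20 ± 0.113 and did not pass (adjusted p = 0.394 in edgeR). It passed an unadjusted p of 0.05 when only these 2 groups were fitted and without OVX-AS-IV-High replicate 1, at 0.20 in both. The OVX-AS-IV-High libraries spanned both groups, and over Sham Srebf1 passed only without OVX-AS-IV-High replicate 1, at 0.32.

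Fasn, the multi-enzyme that builds palmitate, lay at 48.7, 45.4 and 64.4 CPM in Sham, 81.8, 94.7 and 77.1 CPM in OVX, and 69.7, 73.4 and 101 CPM in OVX-AS-IV-High. All 6 libraries of ovariectomized rats were above all 3 Sham libraries. OVX over Sham gave a log2FC of 0.68 ± 0.177 (interval 1.21-fold to 2.11-fold, adjusted p = 0.153 in edgeR). It passed an unadjusted p of 0.05 whichever library was left out, between 0.59 and 0.85, and with the muscle covariate, at 0.52. It was 0.40 without Sham replicates 1 and 2 and did not pass.

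Acaca, whose product makes malonyl-CoA in the cytosol, lay at 20.6, 23.4 and 28.2 CPM in Sham, 31.7, 40.6 and 26.7 CPM in OVX, and 26.6, 27.9 and 34.3 CPM in OVX-AS-IV-High. Here Sham replicate 3 exceeded OVX replicate 3, so the groups overlapped. Acaca rose by 0.46 ± 0.179 on the log2 scale (adjusted p = 0.259 in edgeR). It did not pass with the muscle covariate, at 0.33, nor without Sham replicate 1, Sham replicate 2 or OVX replicate 2, where it came down to 0.28.

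Acacb, the carboxylase of the mitochondrial surface that muscle uses to restrain fatty acid oxidation, went the other way. It lay at 25.3 and 21.7 CPM in Sham replicates 1 and 2, the libraries richest in muscle RNA, and between 3.74 and 11.3 CPM in the other 7 libraries. The log2FC of OVX over Sham was -1.33 ± 0.589 (adjusted p = 0.303 in edgeR). It turned to 0.57 without Sham replicates 1 and 2 and was -0.34 with the muscle covariate, neither of which passed, and no fit that left out 1 library passed except those without Sham replicate 3, OVX-AS-IV-High replicate 1 or OVX-AS-IV-High replicate 3. Acaca made up 49.9%, 57.0% and 88.1% of the summed FPKM of both carboxylases in Sham replicates 1, 2 and 3. In the 6 libraries of ovariectomized rats it made up 74.3% to 91.8%.

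The suppliers of acetyl-CoA and NADPH did not pass the test. Acly lay at 83.7, 92.0 and 125 CPM in Sham, 120, 122 and 128 CPM in OVX, and 93.3, 121 and 131 CPM in OVX-AS-IV-High. Only Sham replicate 3 overlapped with OVX, and the log2FC was 0.30 ± 0.166. Without Sham replicates 1 and 2 it was -0.01, and without Sham replicate 3 it passed at 0.49.

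Me1 was the member with the lowest log2FC. Its level was 78.6, 62.3 and 32.0 CPM in Sham, 43.9, 37.0 and 37.5 CPM in OVX, and 61.9, 52.0 and 43.5 CPM in OVX-AS-IV-High. Sham replicates 1 and 2 held the highest values of the 9 libraries and Sham replicate 3 the lowest. OVX over Sham gave -0.55 ± 0.278 and did not pass. The sign turned without Sham replicates 1 and 2, at 0.31, and the muscle covariate gave -0.16. Of the fits that left out 1 library, Me1 passed only in the one without Sham replicate 3, at -0.83.

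Elovl6, the elongase that turns palmitate into stearate, was the least abundant member. Counts of 227 to 297 gave 7.06, 6.92 and 7.18 CPM in Sham, 7.19, 5.99 and 6.54 CPM in OVX, and 6.28, 6.36 and 8.16 CPM in OVX-AS-IV-High. The groups overlapped, and the log2FC of OVX over Sham was -0.10 with a 95% interval of -0.48 to 0.28.

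Gpam, the mitochondrial acyltransferase that starts glycerolipid synthesis, lay at 51.6, 57.3 and 60.5 CPM in Sham, 67.9, 70.7 and 65.0 CPM in OVX, and 55.6, 49.6 and 60.4 CPM in OVX-AS-IV-High. OVX overlapped with neither of the other groups and was above both. Gpam rose by 0.27 ± 0.101 on the log2 scale in OVX over Sham (adjusted p = 0.245 in edgeR). The call was lost without Sham replicate 1, without OVX replicate 1 and without OVX replicate 2, and with the muscle covariate, at 0.21.

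Dgat2, which adds the last acyl chain of triglycerides, lay at 95.4, 98.3 and 105 CPM in Sham, 89.4, 127 and 95.5 CPM in OVX, and 129, 116 and 88.2 CPM in OVX-AS-IV-High. The 3 groups overlapped, with a log2FC of 0.06 for OVX over Sham and an interval of -0.31 to 0.44. Dgat1, which carries out the same step but is unrelated in sequence, had a log2FC of -0.21 ± 0.182 and did not pass.

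**Figure D2:**
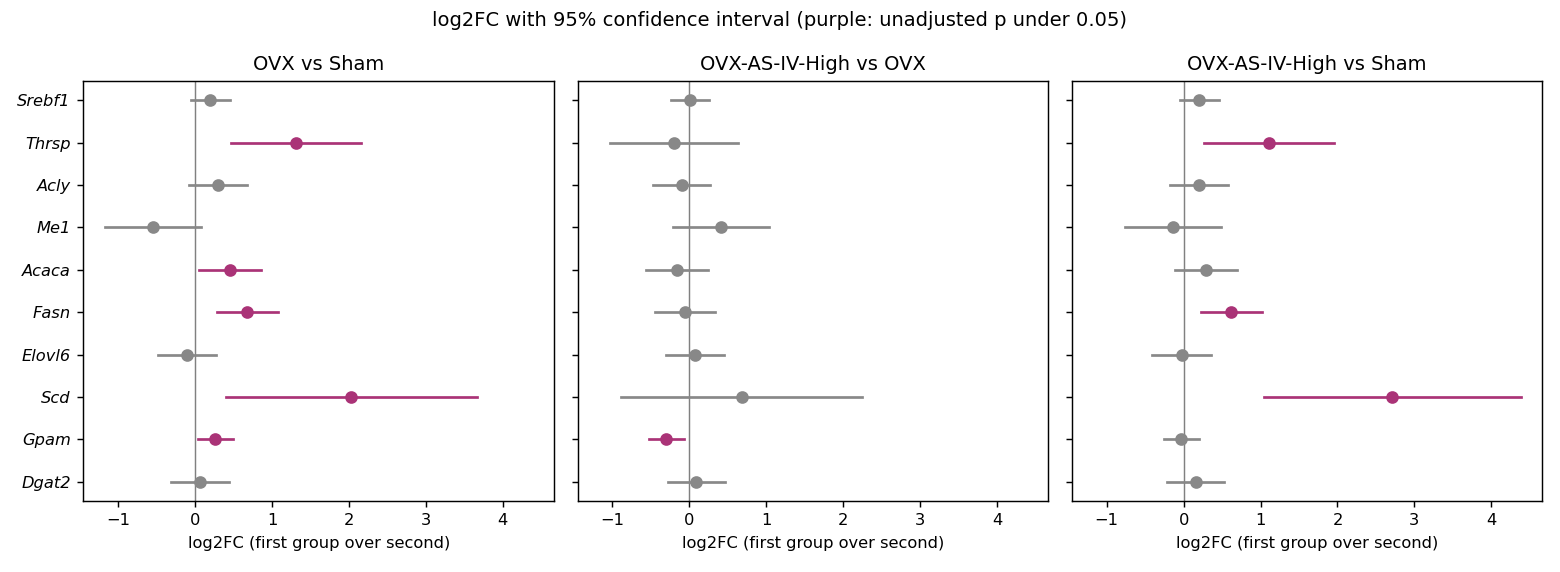
log2FC (horizontal axis) of each member in the 3 comparisons, with its 95% confidence interval from edgeR; purple marks an unadjusted p under 0.05 and grey the rest. Scd, Thrsp and Fasn lie above 0 in both comparisons with Sham, which share the Sham libraries, and Gpam alone is purple in OVX-AS-IV-High vs. OVX, below 0.

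**Figure D3:**
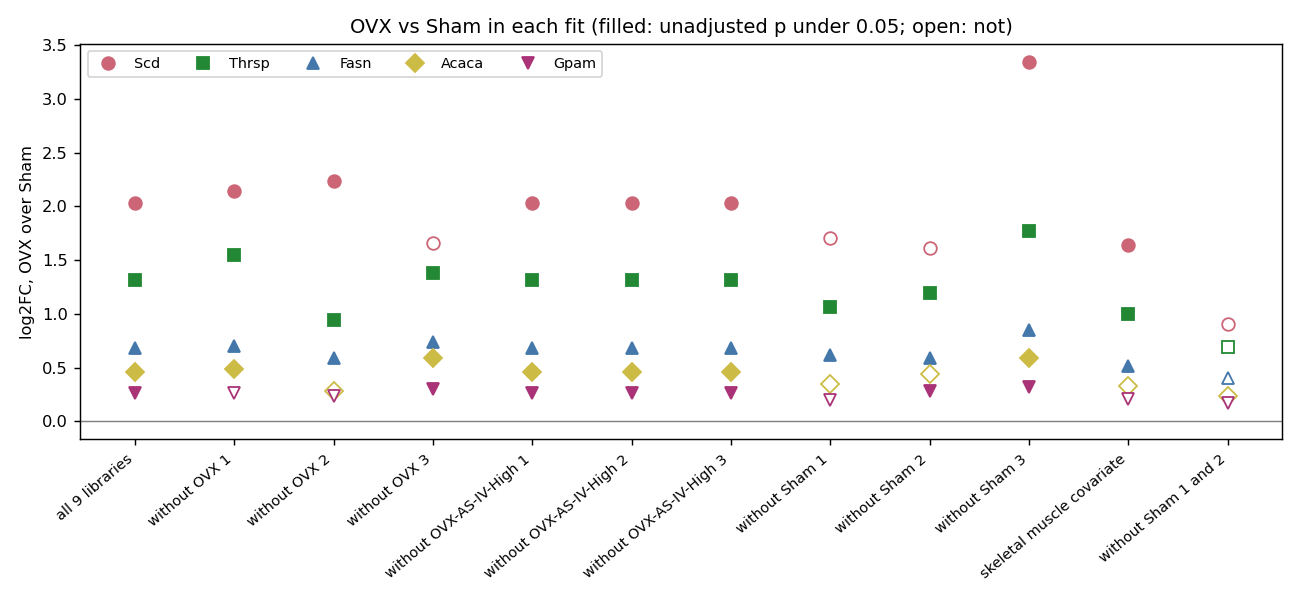
log2FC of OVX over Sham (vertical axis) for the 5 members past the test, in the fit to all 9 libraries, in the 9 fits that leave out 1 library, with the muscle covariate, and without Sham replicates 1 and 2; filled symbols have an unadjusted p under 0.05 and open symbols do not. All values stay above 0, Thrsp and Fasn stay filled in each fit that leaves out a single library, and no symbol is filled without Sham replicates 1 and 2.

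OVX-AS-IV-High vs. OVX asked what AS-IV changed after ovariectomy, and Gpam was the only member past the test. It fell by 0.30 ± 0.101 on the log2 scale, or 1.23-fold, with every treated library below every OVX library (adjusted p = 0.654 in edgeR). One member of 10 was thus lower at an unadjusted p under 0.05, against 2.03% of all tested genes, and none was higher, as 4.42% of all genes were. The same gene was the only member without overlap between the groups as lower, against 6.36% of all tested genes. No member passed the DEG thresholds (0.83% of all tested genes did), and none had an adjusted p under 0.05 in edgeR (0.0%) or in DESeq2 (0.18%). The Gpam call was lost without OVX replicate 2 and without OVX-AS-IV-High replicate 2, and kept with the muscle covariate, at -0.32.

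No other member passed between treated and untreated ovariectomized rats. Scd had a log2FC of 0.68 with an interval of -0.88 to 2.25. Leaving out treated replicate 3 gave 0.36, and leaving out treated replicate 1 gave 1.07. Its treated replicate 1 lay below all OVX libraries and treated replicates 2 and 3 above them. Treated replicate 1 also held the most muscle RNA and the lowest adipocyte marker sum of its group. Thrsp was at -0.20 with an interval of -1.03 to 0.63, and Fasn at -0.06 with an interval of -0.45 to 0.34. Me1 was at 0.41 with an interval of -0.22 to 1.03. It passed an unadjusted p of 0.05 in 3 of 19 alternative fits. These were the fit of only these 6 libraries (0.42), the muscle covariate (0.50) and the fit without Sham replicate 3 (0.41). Acaca, Acly, Dgat2, Elovl6 and Srebf1 lay between -0.16 and 0.09. The median log2FC of the members was -0.02, as was that of all tested genes.

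OVX-AS-IV-High vs. Sham, which shares its libraries with the other comparisons, gave Scd, Thrsp and Fasn above Sham. Scd was 6.56-fold higher (log2FC 2.71 ± 0.743, adjusted p = 0.133 in edgeR), and its log2FC was 4.02 without Sham replicate 3. Thrsp was 2.16-fold higher (1.11 ± 0.376, adjusted p = 0.189), and Fasn 1.54-fold (0.62 ± 0.177, adjusted p = 0.142). Only these 3 members had every treated library above every Sham library, against 9.61% of all tested genes, and for Thrsp the lowest treated library (35.0 CPM) was barely above the highest Sham library (34.7 CPM). At an unadjusted p under 0.05, 3 members were higher, against 9.17% of all tested genes, none was lower (8.48%), and 2 passed the DEG thresholds as higher, against 1.11%, or 3 against 3.07% at the bound of 0.58. All 3 had an adjusted p under 0.05 in DESeq2, which called 6.0% of its genes, and none did in edgeR (0.0%). Gpam, with a log2FC of -0.03 and an interval of -0.26 to 0.19, was near Sham in the treated rats. Without Sham replicates 1 and 2, Scd was at 1.59, Thrsp at 0.49 and Fasn at 0.34 and none of them passed, while Me1 passed at 0.72, having been at -0.14 with all libraries.

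The order of the levels, in FPKM, changed between groups. In Sham the mean ± SD (n = 3) ran from Dgat2 at 39.4 ± 1.76 through Acly at 22.9 ± 4.87, Me1 at 18.7 ± 7.89, Thrsp at 18.1 ± 8.60, Srebf1 at 11.5 ± 0.351, Gpam at 7.99 ± 0.543, Fasn at 5.76 ± 1.11, Scd at 3.29 ± 3.40 and Acaca at 2.45 ± 0.374 to Elovl6 at 1.12 ± 0.0359. Acly, Me1, Thrsp and Srebf1 were neighbours whose library ranges overlapped, as were Fasn, Scd and Acaca. In OVX, Thrsp at 46.0 ± 19.4 and Dgat2 at 42.0 ± 8.78 came first and overlapped, ahead of Acly at 28.8 ± 0.760. Scd, at 13.7 ± 5.35, had moved from the eighth to the fourth place, level within its range with Srebf1 at 13.4 ± 0.339 and Me1 at 13.0 ± 1.25. In OVX-AS-IV-High each of the first 7 places overlapped with the next, from Dgat2 at 43.6 ± 7.60 down to Gpam in the eighth place at 7.77 ± 0.797, with Scd in the fourth place at 21.6 ± 11.8.

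Most adipocyte markers were higher in OVX than in Sham, as were most members. The marker lists were chosen with earlier results of these data known, so their shares are descriptive. In OVX vs. Sham, 12 of the 19 adipocyte markers were higher at an unadjusted p under 0.05, against 8.16% of all tested genes. None was lower, as 8.28% of all genes were, and the median log2FC was 0.58. The log2FC was above 0 in 15 of the 19. Pnpla2, Slc2a4, Cd36 and Lipe had a lower mean CPM in OVX (87.0, 27.1, 20.6 and 51.8) than in Sham (106, 35.5, 23.2 and 53.2). Adipoq and Plin1 no longer passed without Sham replicates 1 and 2, at 0.62 and 0.81, while Lep passed in all 20 alternative fits. The 12 included Adipoq (adiponectin) with a log2FC of 1.35, Plin1 (the coat protein of lipid droplets) with 1.12 and Lep (leptin) with 2.56, the last with 45 to 73 counts per Sham library and 203 to 734 per OVX library. Treated over untreated ovariectomized rats, none of the 19 passed an unadjusted p of 0.05 in edgeR (in DESeq2 1 was higher, Acvr1c, and 1 lower, Lep). Treated over Sham, 11 were higher, against 9.17% of all tested genes. In OVX replicate 2, which had the highest adipocyte sum (1553 CPM), Scd was the lowest of the OVX group (45.5 CPM) and Thrsp, Fasn, Acaca and Gpam were the highest of it (80.9, 94.7, 40.6 and 70.7 CPM). The part of fat cell number in the rise of Scd, Thrsp and Fasn was not tested. All 7 tested B lineage markers were also higher in OVX than in Sham, where 8.16% of all tested genes were, with a median log2FC of 0.68. With AS-IV over OVX, 4 of these 7 were lower, against 2.03% of all tested genes.

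**Figure D4:**
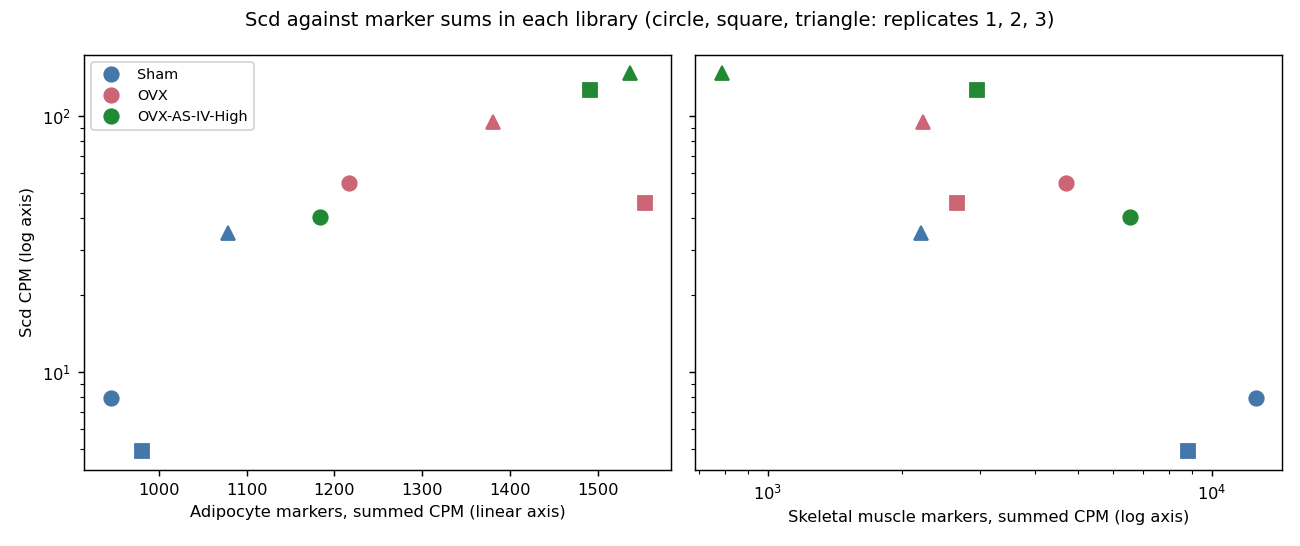
Scd CPM (vertical log axis) against the summed CPM of 19 adipocyte markers (left, linear axis) and of 15 skeletal muscle markers (right, log axis) in each of the 9 libraries, coloured by group, with circle, square and triangle for replicates 1, 2 and 3. The Sham libraries with the lowest Scd, replicates 1 and 2 at 7.91 and 4.90 CPM, have the highest muscle sums (12553 and 8837 CPM) and the lowest adipocyte sums.

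The genes whose pattern over the 9 libraries was most like the members' mean (of log2 CPM, each member centred on its own mean) were Casp2 (Pearson r = 0.990), Rapgef6 (0.990), Vps4b (0.978), Adipoq (0.976) and Tbck (0.974). They are a caspase, an exchange factor for Rap, a sorting protein of endosomes, adiponectin and a kinase of the TBC1 family. Within groups, with the group means taken out, r was 0.963, 0.983, 0.938, 0.930 and 0.935. These are the highest of all non-member genes by construction, over points that share libraries and tissue mixture. Without Sham replicates 1 and 2, the libraries farthest from the median of the members' mean, r over all groups was 0.978, 0.968, 0.932, 0.878 and 0.861. The members' mean itself was -0.48, -0.51 and -0.09 for Sham replicates 1, 2 and 3. For OVX it was 0.08, 0.24 and 0.16, and for treated rats -0.02, 0.23 and 0.37. Sham replicate 3 lay nearer to each OVX library and to OVX-AS-IV-High replicates 1 and 2 than to the other Sham libraries. OVX-AS-IV-High replicate 3, at 0.37, lay farther from it than those Sham libraries did.

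Other steps of lipid synthesis were read from lists of pathway genes, which were also chosen with earlier results of these data known. Of 11 genes that supply citrate, acetyl-CoA and NADPH, 4 were higher in OVX than in Sham, against 8.16% of all tested genes. None was lower, as 8.28% of all genes were. Among the 4 were Mdh1 (cytosolic malate dehydrogenase, log2FC 0.35), Idh1 (cytosolic NADPH-forming isocitrate dehydrogenase, 0.30) and Pc (pyruvate carboxylase, 0.41). None of the 4 reached an absolute log2FC above 1, and none of the 11 passed an unadjusted p of 0.05 with AS-IV over OVX in edgeR or DESeq2. Of 20 alternative fits, the Mdh1 difference passed an unadjusted p of 0.05 in 20, that of Idh1 in 14 and that of Pc in 10. Idh1 lost the call without Sham replicate 2, Sham replicate 3, OVX replicate 1, OVX replicate 3 or OVX-AS-IV-High replicate 1. Pc lost it without Sham replicate 1, Sham replicate 2, OVX replicate 1, OVX replicate 2 or OVX-AS-IV-High replicate 2. Of 14 genes of elongation, desaturation and malonyl-CoA, Scd2 and Elovl5 (0.36) were higher in OVX, and Acacb and Elovl7 were lower. That was 14.3% each way, beside 8.16% and 8.28% of all tested genes. Elovl5 was at 0.21 without Sham replicates 1 and 2 and did not pass.

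Elovl7, an elongase of long saturated chains, had a level of 1.87, 3.73 and 6.76 CPM in Sham, 1.28, 1.98 and 1.87 CPM in OVX, and 0.275, 0.894 and 0.495 CPM in OVX-AS-IV-High. The treated libraries lay below all others, at 10, 33 and 18 counts. The log2FC was -1.27 ± 0.514 for OVX over Sham (adjusted p = 0.269 in edgeR), -1.62 ± 0.544 for OVX-AS-IV-High over OVX (adjusted p = 0.652), which did not pass in limma on log2(FPKM + 1), at -0.41, and -2.88 ± 0.556 for OVX-AS-IV-High over Sham. The value for OVX over Sham no longer passed in limma on log2(FPKM + 0.1), at -0.97, or without Sham replicate 2 or 3 or any of the OVX libraries, and was -0.71 without Sham replicate 3, while that of treated over Sham passed in all 20 alternative fits.

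Of 14 genes of glycerolipid assembly, 2 were higher in OVX than in Sham and 2 were lower, or 14.3% each way beside 8.16% and 8.28% of all tested genes. Pnpla3, a lipid droplet protein known as a target of SREBP-1, was low throughout, with counts of 21, 23 and 15 in the Sham libraries. OVX libraries held 82, 56 and 48 counts and treated libraries 28, 56 and 50. Its OVX libraries were all above Sham (log2FC 1.58 ± 0.387, adjusted p = 0.149 in edgeR), which passed in all 20 alternative fits, and treated over OVX gave -0.45 ± 0.371, which did not pass. Agpat2, an acyltransferase of the step after that of Gpam, rose by 0.29 but passed in only 8 of 20 alternative fits, and in just 1 of the 9 that left out a library. Agpat1, of the same step, fell by 0.25, and Lpin2, a phosphatidate phosphatase, fell by 0.39. Agpat1 lost the call without OVX replicate 2, and Lpin2 without Sham replicate 3, OVX replicate 2 or OVX replicate 3. Where Gpam fell with AS-IV over OVX, Agpat2 was at 0.08 ± 0.123.

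None of 15 regulators of lipogenesis passed an unadjusted p of 0.05 in OVX vs. Sham, in edgeR or in DESeq2. With AS-IV over OVX 2 were higher, where 4.42% of all tested genes were. They were Prkaa1, a catalytic subunit of AMP-activated protein kinase, by 0.54 ± 0.136 (adjusted p = 0.652 in edgeR), and Mbtps2, the protease that makes the last cut in releasing SREBP, by 0.39 ± 0.157 (adjusted p = 0.737). Prkaa1 lay at 81.3, 70.4 and 85.2 CPM in OVX and at 140, 109 and 96.9 CPM in OVX-AS-IV-High, without overlap, and passed in all 19 alternative fits of this comparison. Its Sham mean ± SD (n = 3) was 93.4 ± 1.37 CPM, above every OVX library and below every treated one. Mbtps2 passed in 12 of the 19, and not without OVX replicate 1, OVX replicate 3 or OVX-AS-IV-High replicate 2. Nr1h3 (LXR alpha), which activates Srebf1, was at -0.24 there without passing and fell by 0.40 ± 0.117 in treated over Sham.

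Of 18 genes of fatty acid oxidation, 2 fell after ovariectomy and none rose, a share (11.1%) near the 8.28% of all tested genes that were lower. They were Slc25a20, the carnitine carrier of the inner mitochondrial membrane (-0.36), and Mlycd, which degrades malonyl-CoA (-0.32). The median log2FC of the 18 was -0.22, with 1 of them above 0. Treated over Sham, 7 of 18 were lower, against 8.48% of all tested genes, among them Pdk4 (-1.62), at 15.3 and 24.2 CPM in the muscle-rich Sham replicates 1 and 2 and at 4.25 CPM in replicate 3. Without Sham replicates 1 and 2 the sign of Pdk4 turned, at 0.17, and it did not pass without Sham replicate 2 or OVX-AS-IV-High replicate 3. In OVX vs. Sham, Slc25a20 passed in all 20 alternative fits, and Mlycd did not pass without Sham replicate 1, Sham replicate 2 or OVX replicate 1. None of 6 genes of the separate mitochondrial fatty acid synthesis route passed an unadjusted p of 0.05 in any comparison, in edgeR or DESeq2.

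**Figure D5:**
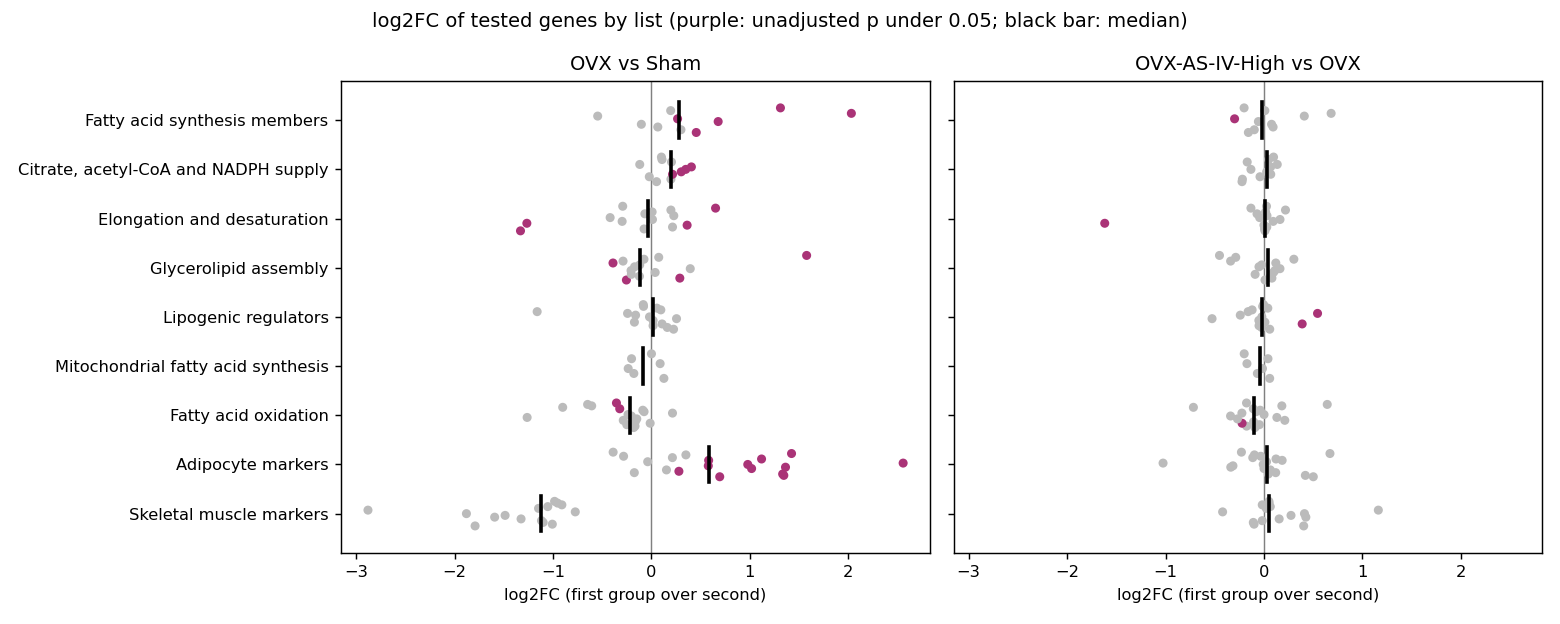
log2FC (horizontal axis) of every tested gene in 9 lists for OVX vs. Sham (left) and OVX-AS-IV-High vs. OVX (right); purple points have an unadjusted p under 0.05, grey points do not, and the black bar is the list's median. On the left the adipocyte markers (median 0.58) and the fatty acid synthesis members (median 0.28) lie to the right of 0 and the muscle markers (median -1.12) to its left, while on the right the medians of all lists lie near 0.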

How the data were processed

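Poly(A) RNA of rat bone was sequenced on an Illumina HiSeq X-ten. Per the labels, libraries were strand-specific by dUTP and the build was mRatBN7.2. The authors filtered reads with the NGS QC Toolkit, aligned them with Tophat and Bowtie2, and estimated abundance with eXpress. They deposited a table of whole-number counts and a table of FPKM values, in which counts are divided by gene length and library size. How the estimates became whole numbers is not given in the sources used here. Of the genes with at least 100 counts in every library (11928), all gave the same length from both tables in every library within 1%.

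Counts were tested with edgeR 4.0.16 (TMM, filterByExpr, quasi-likelihood F test) in R 4.3.3, with all 9 libraries in 1 fit and Benjamini-Hochberg adjustment over 16874 genes. SE is the log2FC divided by the square root of F. CPM used TMM-scaled library sizes. FPKM was used to compare genes per length and in limma 3.58.1 on log2(FPKM + 1) or log2(FPKM + 0.1). DESeq2 1.42.0 was the other count test. The script was tested on simulated data. For a single gene, the smallest exact permutation p of 3 against 3 libraries is 0.1. The replicates are described as independent biological samples. No library pair was identical.

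Members, pathway lists and marker lists were chosen with earlier results of these data known. From the other pathway lists the named genes were those past the DEG thresholds or, failing that, up to 3 with the smallest p in a comparison. Paralogs and the 5 genes of most similar pattern were named too. Pc, Scd2, Elovl5, Agpat1, Agpat2 and Lpin2 were named after their values were seen. The values of 1 list gene that this rule would name are not reported here. Deviations of same-numbered OVX and OVX-AS-IV-High libraries from their group means correlated (r = 0.31, 0.158 and 0.13). Against Sham, replicate 2 had r below 0 (OVX -0.161, OVX-AS-IV-High -0.158). Replicate 1 there reached 0.2 with OVX, 0.314 with OVX-AS-IV-High, and replicate 3 reached 0.253, then 0.435. In each group replicate 1 had the highest muscle sum and replicate 3 the lowest, so these values cannot separate pairing from muscle content. Whether the numbers pair animals was not tested. The main test used no pairing, which entered only the alternative with a replicate block.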

Additional observations from a re-analysis of the deposited data

How the results depend on the processing

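The alternatives were other count scalings (RLE, library sizes alone), DESeq2, no filter, only the groups compared, a replicate block, 3 limma fits on FPKM and leaving out each library, with the muscle covariate, the removal of Sham replicates 1 and 2 and the DEG bound of 0.58 added after the data had been seen. Over the members' log2FC in the 3 comparisons, 524 values kept their direction and side of an unadjusted p of 0.05, 25 no longer passed, 12 newly passed and 29 changed sign. In OVX vs. Sham, members past the DEG thresholds numbered 1 with the covariate, 0 without both Sham libraries and 1 to 2 without single libraries. Members with an unadjusted p under 0.05 numbered 3, 0 and 2 to 7 there, and DESeq2 gave 2 with an adjusted p under 0.05. In OVX-AS-IV-High vs. OVX, members with an unadjusted p under 0.05 numbered 2 in the fit of only these groups, 2 with the covariate and 0 to 2 without single libraries. In OVX-AS-IV-High vs. Sham, DEG members numbered 1 with the covariate, 0 without both Sham libraries and 1 to 2 without single libraries, those with an unadjusted p under 0.05 numbered 1 without both and 2 to 5 without single libraries, and DESeq2 gave 3 with an adjusted p under 0.05. The cause was not tested, except that fits with fewer libraries rest on fewer values.

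Signs turned without both Sham libraries in OVX vs. Sham for Acly (-0.0094), Dgat2 (-0.0014) and Me1 (0.31), and in OVX-AS-IV-High vs. Sham for Acly (-0.11) and Me1 (0.72). With the covariate the latter comparison gave -0.0243 for Acly and 0.34 for Me1. Srebf1 in OVX-AS-IV-High vs. OVX, at 0.0088, turned to -0.0249 with library sizes alone, -0.0352 (limma, FPKM + 1, with and without a filter), -0.0385 (FPKM + 0.1) and -0.0221 (covariate). Without both Sham libraries Acacb turned to 0.57 in OVX vs. Sham and Pdk4 to 0.17 in OVX-AS-IV-High vs. Sham. Leaving out single libraries gave Dgat2 -0.10 to 0.16 in OVX vs. Sham. In OVX-AS-IV-High vs. OVX it gave Acaca -0.29 to 0.0166, Acly -0.20 to 0.0314, Dgat2 -0.0271 to 0.26, Elovl6 -0.0569 to 0.15, Fasn -0.24 to 0.0422, Srebf1 -0.11 to 0.12 and Thrsp -0.44 to 0.16. In OVX-AS-IV-High vs. Sham it gave Elovl6 -0.16 to 0.0418, Gpam -0.10 to 0.0391 and Me1 -0.43 to 0.16, and Thrsp, at 0.88 to 1.57, lost its call without Sham replicate 1, Sham replicate 2 or OVX-AS-IV-High replicate 3.

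With the replicate block, Acly and Me1 were gained in OVX vs. Sham, where 7 members passed an unadjusted p of 0.05, and the call of no member changed in OVX-AS-IV-High vs. OVX (1 member, Gpam, at -0.30) or vs. Sham (3 members). Genes past the DEG thresholds numbered 525, 140 and 531 in the 3 comparisons (OVX vs. Sham, OVX-AS-IV-High vs. OVX, OVX-AS-IV-High vs. Sham), against 75, 13 and 84 with limma on log2(FPKM + 1), 315, 80 and 353 with FPKM + 0.1, 73, 13 and 77 with no filter on FPKM, and 791 and 274 in the first and second without a filter on counts.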
